A study of Rattus norvegicus with 8 samples.

Results

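The EGF receptor family and its ligands were followed through 10 genes in rat alveolar type II (ATII) cells, the epithelial cells of the lung that make surfactant. The 10 genes comprise 6 ligands (Areg, Ereg, Hbegf, Tgfa, Btc and Egf), 3 receptors (Egfr, Erbb2 and Erbb3) and the feedback inhibitor Errfi1. Each was read from the probe set whose platform annotation gives that single symbol, and each of the 10 had 1 such probe set, among 18166 genes measured in all. The wells compared were AdHIF1a wells, given an adenovirus with a constitutively active mutant of HIF1a, and AdGFP wells, given an adenovirus with green fluorescent protein. Each of 4 male Sprague Dawley rats gave 1 well of each virus, so the 8 arrays form 4 pairs, and the RNA of each rat was extracted on a day of its own, so that rat and day cannot be told apart. The cells were freshly isolated, exposed to virus for 3 h at a multiplicity of infection of 20, plated on a collagen and Matrigel mixture and harvested 24 h later. The culture of all 8 wells included 2% fetal bovine serum and 5% rat serum. Neither the ages of the rats nor the species and exact mutation of the HIF1a insert are given in the sources used here.

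EGF-family ligands are made as membrane-anchored precursors, and proteases of the ADAM family cut them loose so that they can act on the same or neighbouring cells. A bound receptor pairs with another family member and its kinase then drives the Ras and ERK cascade and PI3-kinase. Erbb2 has no known ligand of its own and serves as a partner, and Erbb3, a receptor for neuregulins, has very weak kinase activity and signals through such partners. Errfi1 binds the kinase domain of EGFR and shuts it off. In the alveolus this system is known for its part in epithelial growth and repair, and neuregulin acting on type II cells for its part in fetal surfactant synthesis.

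Levels are log2 signals of the arrays, on which a step of 1 is a doubling of signal, and they are not compared between probe sets. A difference is the AdHIF1a level minus the AdGFP level, on that log2 scale ± standard error (SE), taken from a limma fit over all probe sets with the rat as a block. A gene was called when its Benjamini-Hochberg adjusted p over the 18166 genes was under 0.05. Of the 10 genes, 4 were called lower, 2 were called higher and 4 were not past the threshold. Over all genes, 13.4% were called, 7.77% of all genes lower and 5.68% higher. At an unadjusted p under 0.05, limma gave 2806 of the 18166 genes lower and 2217 higher. The groups did not overlap for 7 of the 10 genes, against 22.5% of all genes; 5 of the 7 lay lower and 2 higher, against 12.2% and 10.3% of all genes. The genes were chosen with earlier results of these arrays known, so these shares are read as a description.

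Promoter sequences of the called genes are shown for reference, since Areg and Btc, neighbours on chromosome 14, and Hbegf all gave lower signal and Errfi1 gave higher signal. Each sequence runs 5′ to 3′ on the gene's strand, from 250 bases before to 50 bases after the annotated start, in RefSeq's GRCr8 tables. Capitals mark the HIF-binding core (ACGTG or GCGTG, either strand), the cAMP response element TGACGTCA and, on the gene's strand, the TATAAA box. The regions are chr14:17265592-17265891 (minus strand) for Areg, chr14:16992418-16992717 (plus strand) for Btc, chr18:28390171-28390470 (minus strand) for Hbegf and chr5:166606591-166606890 (plus strand) for Errfi1.
Areg: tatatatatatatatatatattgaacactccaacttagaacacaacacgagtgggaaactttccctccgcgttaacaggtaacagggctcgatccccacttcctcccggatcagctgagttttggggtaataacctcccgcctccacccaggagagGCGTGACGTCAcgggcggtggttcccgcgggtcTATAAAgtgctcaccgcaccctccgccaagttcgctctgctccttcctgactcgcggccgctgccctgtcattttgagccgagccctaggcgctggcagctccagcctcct
Btc: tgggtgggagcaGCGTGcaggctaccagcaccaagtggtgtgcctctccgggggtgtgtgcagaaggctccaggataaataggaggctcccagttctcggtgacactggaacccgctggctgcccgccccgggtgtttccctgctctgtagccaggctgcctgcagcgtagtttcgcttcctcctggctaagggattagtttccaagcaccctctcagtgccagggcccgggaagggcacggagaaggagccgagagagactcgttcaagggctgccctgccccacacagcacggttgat
Hbegf: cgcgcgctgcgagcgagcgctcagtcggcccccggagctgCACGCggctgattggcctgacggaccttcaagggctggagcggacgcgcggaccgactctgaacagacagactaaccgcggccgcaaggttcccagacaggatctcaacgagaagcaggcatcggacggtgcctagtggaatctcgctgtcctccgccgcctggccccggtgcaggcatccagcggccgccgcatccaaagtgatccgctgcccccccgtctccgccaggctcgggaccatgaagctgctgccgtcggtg
Errfi1: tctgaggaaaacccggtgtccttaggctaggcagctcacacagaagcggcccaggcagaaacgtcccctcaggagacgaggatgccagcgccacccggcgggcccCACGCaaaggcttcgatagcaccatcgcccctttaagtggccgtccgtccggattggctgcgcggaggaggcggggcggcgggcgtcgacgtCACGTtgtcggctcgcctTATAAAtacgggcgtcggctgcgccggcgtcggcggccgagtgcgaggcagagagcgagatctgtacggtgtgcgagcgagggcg

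Promoters of 8 of the 10 genes were matched by gene identifier, and Ereg and Erbb3 were not. A HIF-binding core was present in 6 of the 8 and absent from the windows of Tgfa and Egf. Over 33469 promoter windows of the same length, 41.6% held such a core, 19.3% as ACGTG and 29.7% as GCGTG. G and C made up 51% to 76.7% of the bases in the 8 windows. The 33469 windows were not matched to the 8 for base composition, so the shares are a description. Errfi1 and Egfr each held 1 ACGTG and 1 GCGTG. Areg, Btc, Hbegf and Erbb2 each held 1 GCGTG. The windows with a core thus belong to genes that were lower, higher and not called. Areg was the only one of the 8 with TGACGTCA, which 1.83% of all windows held, and there it overlaps the GCGTG. The box TATAAA was found in Areg and Errfi1, against 8.8% of all windows. A match of letters is not a measured binding site.

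Most of the ligands fell. Areg, Ereg, Hbegf and Btc were each lower in the AdHIF1a wells of 4 of 4 rats, while Tgfa and Egf did not pass the threshold, so that 4 of 6 ligands were called lower and 0 higher. Over all genes, 7.77% were called lower and 5.68% higher. At an unadjusted p under 0.05, limma also gave 4 ligands lower and 0 higher, against 2806 and 2217 of all 18166 genes. The median difference of the 6 ligands was -0.64, against -0.005 over all genes. Among the rats the median was -0.56, -0.63, -0.38 and -0.88 in rats 1 to 4.

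Areg encodes amphiregulin, a ligand of EGFR. Its log2 signal was 8.40, 8.43, 8.03 and 7.77 in the AdHIF1a wells of rats 1 to 4, against 10.25, 9.69, 9.16 and 9.44 in the AdGFP wells. Every AdHIF1a well lay below every AdGFP well. The signal was 2.78-fold lower (95% interval 2.16 to 3.59, difference -1.48 ± 0.15, limma adjusted p = 0.00497, probe set 17693425). By size Areg ranked 85 among the 1411 genes called lower, where Ereg ranked 225, Hbegf 698 and Btc 939. Among the 1032 genes called higher, Erbb3 ranked 548 and Errfi1 939. The differences of Areg were -1.85, -1.26, -1.13 and -1.67 in rats 1 to 4. Its AdHIF1a wells spread over 0.66, against 1.09 for its AdGFP wells. No alternative setting ended this call, and with each rat left out in turn the adjusted p was at most 0.0362.

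Ereg encodes epiregulin, which binds EGFR and ERBB4. It read 10.26, 9.84, 9.74 and 9.26 in the AdHIF1a wells of rats 1 to 4, against 11.14, 11.03, 10.66 and 10.81 in the AdGFP wells. The groups were again apart, with the AdHIF1a well of rat 4 the lowest of all. The signal was 2.20-fold lower (95% interval 1.73 to 2.78, difference -1.13 ± 0.14, limma adjusted p = 0.00810, probe set 17693433). Its differences of -0.88, -1.19, -0.92 and -1.55 put the largest decrease in rat 4, whereas that of Areg was in rat 1. Omission of rat 2 ended the call (adjusted p = 0.0529), and over all alternatives the adjusted p ran from 0.00117 to 0.0529.

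Hbegf encodes heparin-binding EGF-like growth factor. Its signal was 8.98, 9.41, 9.32 and 9.02 in the AdHIF1a wells, against 10.06, 10.04, 9.61 and 9.83 in the AdGFP wells of rats 1 to 4. The groups did not overlap, but the difference ran unevenly, from -1.08 in rat 1 to -0.29 in rat 3. The fitted decrease was 1.63-fold (95% interval 1.27 to 2.09, difference -0.70 ± 0.14, limma adjusted p = 0.0326, probe set 17725668). It was not called without rat 1 (adjusted p = 0.0655), rat 2 (0.123) or rat 4 (0.146), and the alternatives ranged from 0.00809 to 0.146.

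Btc encodes betacellulin, a further ligand of EGFR and ERBB4. It read 6.15, 6.03, 5.97 and 5.74 in the AdHIF1a wells of rats 1 to 4, against 6.39, 6.67, 6.44 and 6.69 in the AdGFP wells. No well overlapped between the viruses, and the smallest difference was in rat 1. The decrease was 1.49-fold (95% interval 1.18 to 1.88, difference -0.58 ± 0.13, limma adjusted p = 0.0472, probe set 17688828). Of the 6 called genes, Btc lay nearest the threshold. Its call was lost after quantile normalization (adjusted p = 0.0556), after median centring (0.0555) and without rat 2 (0.181), rat 3 (0.124) or rat 4 (0.156), within a range of 0.00899 to 0.181 over the alternatives.

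Tgfa, which encodes transforming growth factor alpha, another EGFR ligand, showed no difference past the threshold. It read 7.12, 7.39, 7.24 and 7.24 in the AdHIF1a wells, against 7.24, 7.21, 7.21 and 7.27 in the AdGFP wells. The difference was 0.02 ± 0.09 (95% interval -0.21 to 0.24, limma adjusted p = 0.940), 2 rats going each way. The interval reaches down to a difference of -0.21, which is smaller in size than the difference fitted for any of the 4 called ligands. Egf, the founding ligand, read 4.39, 4.63, 4.54 and 4.47 in the AdHIF1a wells, against 4.39, 4.23, 4.59 and 4.48 in the AdGFP wells. All of its 8 values lay below the median of the probe sets on their array, where folds are compressed and the files hold no detection calls. Its difference was 0.09 ± 0.11 (adjusted p = 0.688), and no direction is read from it.

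**Figure D1:**
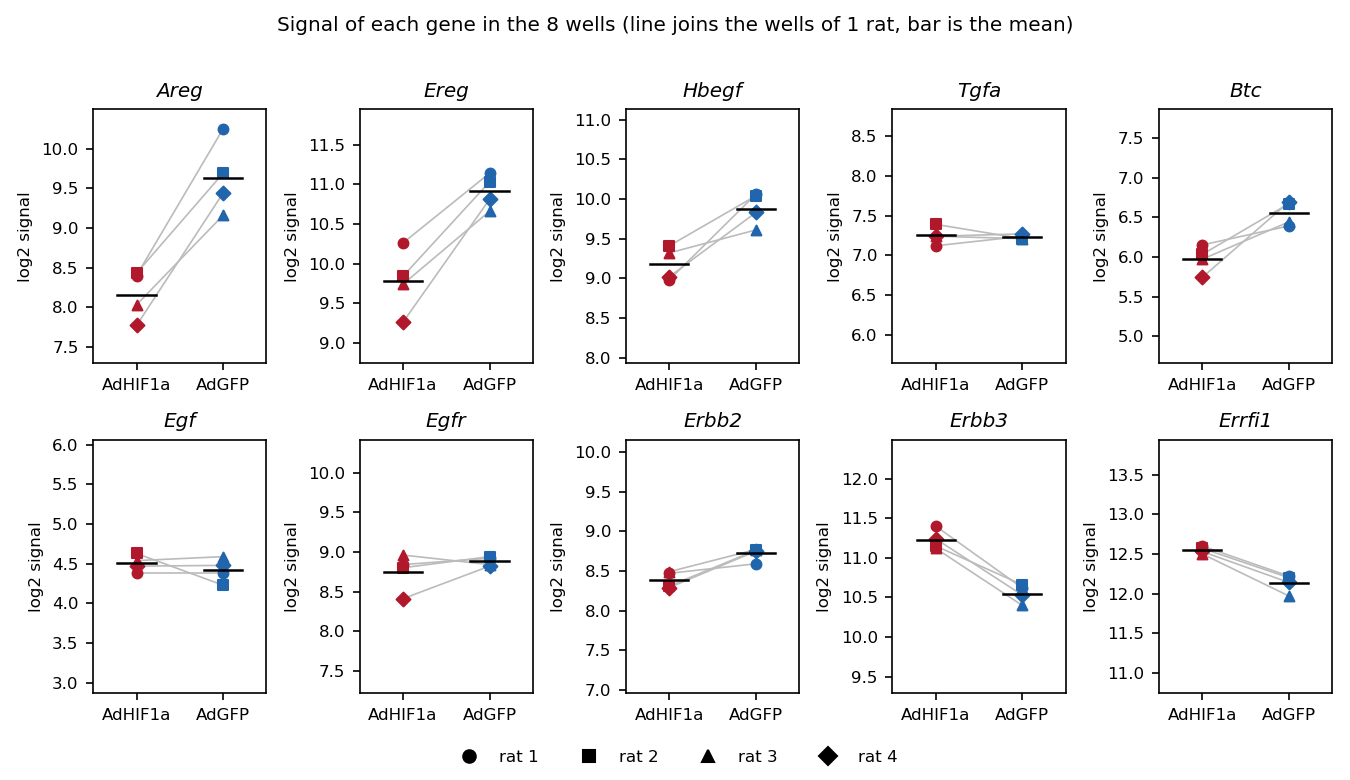
Log2 signal of the 10 genes in each well, AdHIF1a at the left of each panel and AdGFP at the right, with a line joining the 2 wells of a rat, a marker shape per rat and a bar at the group mean (n = 4). The panels have different starting values but the same span; Areg, Ereg, Hbegf and Btc sit lower in the AdHIF1a wells, Erbb3 and Errfi1 sit higher, and Tgfa, Egf and Egfr overlap between the viruses.

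The 3 receptors did not share a direction. Erbb3 rose, Egfr did not pass the threshold and Erbb2 was lower in 4 of 4 rats without passing it, which gave 1 of 3 receptors called higher and 0 lower. The shares called over all genes were 5.68% higher and 7.77% lower. At an unadjusted p under 0.05, limma gave 1 receptor higher and 1 lower, against 2217 and 2806 of all 18166 genes. The median difference of the 3 receptors was -0.13, which is the value of Egfr.

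Erbb3 read 11.40, 11.15, 11.12 and 11.24 in the AdHIF1a wells of rats 1 to 4, against 10.62, 10.66, 10.40 and 10.53 in the AdGFP wells. The groups were well apart, with a gap wider than the spread within either group. The signal was 1.60-fold higher (95% interval 1.37 to 1.87, difference 0.68 ± 0.09, limma adjusted p = 0.0108, probe set 17832998). The increases of 0.78, 0.49, 0.72 and 0.71 varied less between rats (SD 0.13) than those of the called ligands (SD 0.30 to 0.34). Omission of rat 3 (adjusted p = 0.0510) or of rat 4 (0.0674) ended the call, with a difference of 0.66 each time, and the alternatives ranged from 0.00160 to 0.0674.

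Egfr, the receptor of all 6 ligands, read 8.84, 8.80, 8.96 and 8.41 in the AdHIF1a wells of rats 1 to 4, against 8.92, 8.94, 8.84 and 8.82 in the AdGFP wells. The AdGFP wells were tightly grouped, and the AdHIF1a well of rat 4 was the lowest of the 8. The difference was -0.13 ± 0.11 (95% interval -0.41 to 0.15, limma adjusted p = 0.538, probe set 17691651). It was positive in rat 3 (0.12) and negative in the other 3 rats.

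Erbb2 read 8.47, 8.31, 8.49 and 8.29 in the AdHIF1a wells of rats 1 to 4, against 8.59, 8.76, 8.77 and 8.75 in the AdGFP wells. Its groups did not overlap, with a difference of -0.33 ± 0.10 (1.25-fold, 95% interval of the fold 1.06 to 1.49, probe set 17650792). The adjusted p of 0.0905 in limma missed the threshold, and ranged from 0.0285 to 0.316 over the alternatives. It passed when the rat was no block (0.0354) or a random block (0.0285), when probe sets under the median were left out (0.0476), and when the spread was estimated from the 18166 genes alone (0.0438).

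Errfi1, the inhibitor of EGFR that the pathway itself induces, was called higher. It read 12.60, 12.57, 12.50 and 12.53 in the AdHIF1a wells of rats 1 to 4, against 12.22, 12.20, 11.97 and 12.14 in the AdGFP wells. The AdHIF1a wells lay within 0.10 of each other and above every AdGFP well. The signal was 1.34-fold higher (95% interval 1.16 to 1.54, difference 0.42 ± 0.08, limma adjusted p = 0.0293, probe set 17804459). The increase was 0.38, 0.37, 0.53 and 0.39 in rats 1 to 4, the smallest spread of the 10 genes (SD 0.08). The call was lost after median centring (0.34, adjusted p = 0.140) and without rat 1 (0.0582), rat 2 (0.128), rat 3 (0.107) or rat 4 (0.126), and the alternatives ranged from 0.00262 to 0.140.

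**Figure D2:**
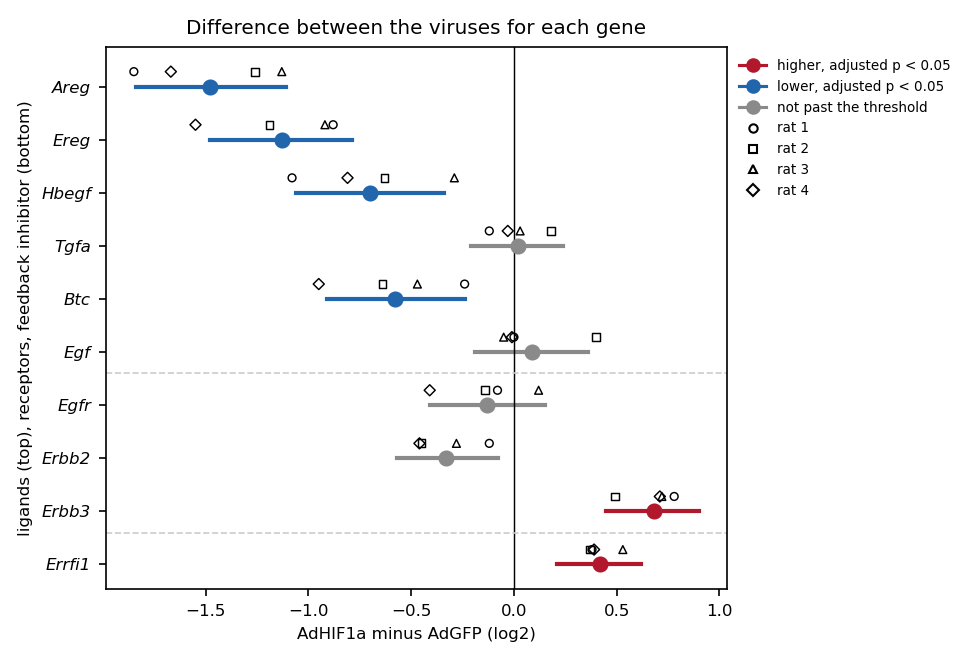
Difference between AdHIF1a and AdGFP on the log2 scale for each gene, ligands above, receptors in the middle and Errfi1 below; filled points are fitted differences with 95% intervals, open markers are the 4 rats and colour marks the call. The 4 called ligands lie between -1.48 and -0.58, and Erbb3 and Errfi1 lie at 0.68 and 0.42.

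The ligand median lay below the receptor median in each rat. The median of the ligands minus the median of the receptors was -0.48, -0.50, -0.50 and -0.47 in rats 1 to 4, and -0.51 from the fitted differences. With 3 receptors the receptor median was the value of Egfr in every rat, so this contrast mainly sets the ligands against Egfr. It carries no test, because the genes were chosen with earlier results known.

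Of 6 further ligands and receptors of the family, 1 was called lower and 0 higher, against 7.77% and 5.68% of all genes. At an unadjusted p under 0.05, limma gave 2 of them lower and 0 higher, against 2806 and 2217 of all 18166 genes. The called gene was Nrg1, which encodes neuregulin 1, the ligand of ERBB3 and ERBB4. It read 8.01, 7.98, 8.46 and 7.69 in the AdHIF1a wells of rats 1 to 4, against 9.19, 9.25, 9.50 and 9.29 in the AdGFP wells. The groups were far apart and the signal was 2.42-fold lower (difference -1.27 ± 0.12, limma adjusted p = 0.00432). Nrg1 fell where its receptor gene Erbb3 rose, in 4 of 4 rats each. The receptor gene Erbb4 lay below the array median on all 8 arrays (3.44 in AdHIF1a wells, 3.38 in AdGFP wells), as did Epgn, Nrg3 and Nrg4. The median difference of the list was 0.06.

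In chromosome order in the GRCr8 annotation, Btc, Areg, Ereg and Epgn follow each other with no other protein-coding gene between them. The 3 protein-coding genes on either side were looked up after the values of the ligands had been seen, and 5 of these 6 were measured. Parm1, next to Btc, was also lower (1.88-fold, difference -0.91 ± 0.08, limma adjusted p = 0.00437), with 10.27 ± 0.09 in AdHIF1a wells and 11.18 ± 0.13 in AdGFP wells (SD, n = 4). Rchy1 beyond it differed by 0.05 ± 0.11 (adjusted p = 0.818). On the other side Epgn, which encodes the ligand epigen, was dim (2.99 and 2.85 in AdHIF1a and AdGFP wells), and Mthfd2l, a mitochondrial folate enzyme gene, differed by -0.08 ± 0.12 (adjusted p = 0.728). The chemokine genes Cxcl2 and Cxcl1 followed with differences of 1.38 ± 0.34 (adjusted p = 0.0549, 0.0181 to 0.198 over the alternatives, 4 of which called it higher) and 0.37 ± 0.30 (0.509). The lower signals thus covered 4 successive measured genes, Parm1 to Ereg, and the genes beyond did not pass the threshold.

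**Figure D3:**
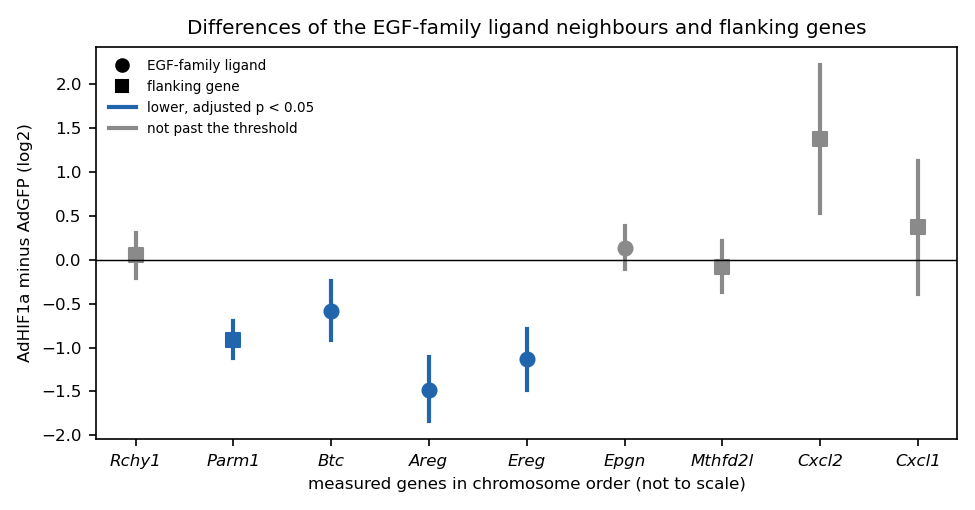
Fitted difference between AdHIF1a and AdGFP (log2, bars are 95% intervals) for the measured genes around the ligand cluster, placed in chromosome order at equal steps; circles are EGF-family ligands and squares flanking genes. Parm1, Btc, Areg and Ereg lie below 0 and are called lower, and Epgn, Rchy1, Mthfd2l, Cxcl2 and Cxcl1 are not past the threshold.

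Genes that release or carry the ligands went both ways. Of 13 measured, 3 were called lower and 2 higher, against 7.77% and 5.68% of all genes, with a median difference of -0.14. Adam17, the main protease that sheds Areg, Ereg, Hbegf and Tgfa, stood at 9.91 ± 0.11 in AdHIF1a wells and 9.90 ± 0.10 in AdGFP wells (SD, n = 4, difference 0.01 ± 0.11, limma adjusted p = 0.957). Adam19, a metalloprotease that can cut neuregulin, read 9.96, 9.67, 9.98 and 9.38 in the AdHIF1a wells of rats 1 to 4, against 11.25, 11.13, 10.94 and 11.19 in the AdGFP wells. It was 2.60-fold lower with no overlap (difference -1.38 ± 0.15, limma adjusted p = 0.00651). Adam12, a metalloprotease known to cut HB-EGF, rose 1.94-fold to 9.33 ± 0.21 in AdHIF1a wells, against 8.38 ± 0.18 in AdGFP wells (SD, limma adjusted p = 0.0113).
Adam9, a further metalloprotease of the family, fell by 0.58 ± 0.08 (adjusted p = 0.0134). Timp3, the tissue inhibitor that blocks ADAM17, fell by 0.98 ± 0.12 (adjusted p = 0.00797). Rhbdf2, which encodes an iRhom that carries ADAM17 to the cell surface, rose by 0.38 ± 0.09 (adjusted p = 0.0436) and was named after its value was seen. Calls were lost for Adam9 without rat 2 or rat 4 (adjusted p = 0.0802 and 0.0792), for Adam12 without rat 2 or rat 3 (0.0664 and 0.0516), for Timp3 without rat 2 (0.0522), and for Rhbdf2 after median centring (0.197) or when any 1 of the 4 rats was left out (0.0852 to 0.200).

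Of 19 measured brakes on the receptors, 2 were called lower and 1 higher, against 7.77% and 5.68% of all genes. Their median difference was 0.03. Lrig1, a transmembrane protein that promotes breakdown of the receptors, fell by 0.71 ± 0.15 (limma adjusted p = 0.0372), and Cblc, a ubiquitin ligase of the Cbl family, by 0.46 ± 0.08 (adjusted p = 0.0243). Spred2, which restrains Ras and ERK signalling, rose by 0.72 ± 0.10 (adjusted p = 0.0116), to 8.08 ± 0.16 in AdHIF1a wells, against 7.36 ± 0.09 in AdGFP wells (SD, n = 4). The calls of Lrig1 and Cblc were lost when any 1 of the 4 rats was left out (adjusted p = 0.0553 to 0.158 for Lrig1 and 0.0574 to 0.110 for Cblc), and that of Spred2 without rat 2, 3 or 4 (0.0656, 0.0542 and 0.0635).

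Among adaptors and relay kinases, 2 of 23 measured genes were called higher and 1 lower, against 5.68% and 7.77% of all genes. The median difference was -0.02. Map2k1, which encodes the ERK-activating kinase MEK1, read 11.82, 11.79, 11.68 and 11.85 in the AdHIF1a wells of rats 1 to 4, against 10.93, 10.94, 10.94 and 11.09 in the AdGFP wells. The increase of 1.75-fold (0.81 ± 0.08, limma adjusted p = 0.00526) held without each rat in turn. Sos2, an activator of Ras, rose by 0.67 ± 0.08 (adjusted p = 0.00788), and Plcg1, a phospholipase that binds the receptors, fell by 0.47 ± 0.09 (adjusted p = 0.0249). Sos2 was not called without rat 2 or rat 4 (adjusted p = 0.0586 and 0.0546), nor Plcg1 when any 1 of the 4 rats was left out (0.0564 to 0.131).

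Genes known to respond to ERK were split, with 5 of 23 measured called higher and 2 lower, against 5.68% and 7.77% of all genes. Their median difference was -0.09. Fosl1, an AP-1 subunit, read 9.87, 10.40, 9.60 and 10.15 in the AdHIF1a wells of rats 1 to 4, against 9.03, 8.84, 8.47 and 9.14 in the AdGFP wells, an increase of 2.20-fold without overlap (limma adjusted p = 0.00807). Fos rose by 0.82 ± 0.11 (adjusted p = 0.0108; 0.212 without the rat as a block) and the cytokine gene Lif by 0.77 ± 0.15 (0.0263). Junb, an AP-1 subunit, and Dusp5, an ERK phosphatase, rose by 0.36 ± 0.08 (0.0414) and 0.59 ± 0.13 (0.0373; 0.0563 without the rat as a block).
The lower genes were Phlda1, a growth-factor-induced gene (-0.63 ± 0.13, adjusted p = 0.0314), and Egr1, an immediate-early transcription factor. Egr1 read 10.35, 10.75, 9.26 and 8.57 in the AdHIF1a wells, against 11.43, 11.21, 9.90 and 10.06 in the AdGFP wells of rats 1 to 4. Its groups overlapped and the rats differed widely, and the call (-0.92 ± 0.19, adjusted p = 0.0317) was lost without the rat as a block (0.314) and when any 1 of the 4 rats was left out (0.0663 to 0.0989). Junb, Dusp5 and Egr1 were named after their values were seen. Calls were also lost for Fos without rat 3 or 4 (0.0514 and 0.0598), for Lif and Phlda1 when any 1 of the 4 rats was left out (0.0676 to 0.0775 and 0.0611 to 0.144), for Dusp5 without rat 2, 3 or 4 (0.125 to 0.163), and for Junb after median centring (0.221) or when any 1 of the 4 rats was left out (0.0837 to 0.189).

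**Figure D4:**
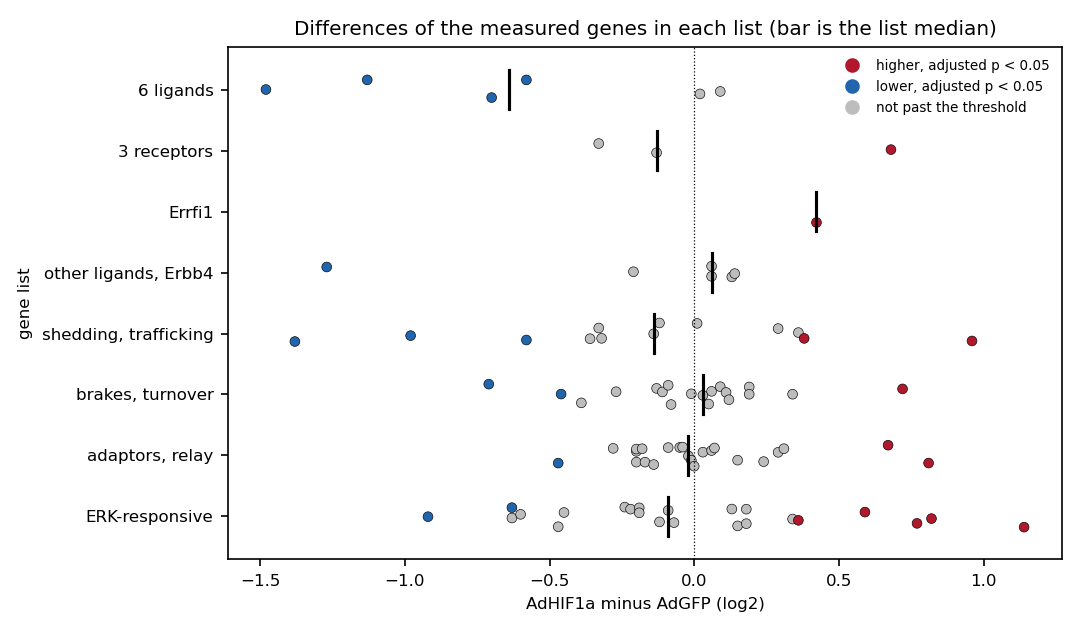
Difference between AdHIF1a and AdGFP (log2) for each measured gene of the 8 lists, 1 point per gene with random vertical offset, colour by call and a bar at the list median. The ligand median lies at -0.64, and the medians of the other lists, Errfi1 aside, lie between -0.14 and 0.06.

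Of 8 measured type II markers 0 lay below the array median on all arrays, and Sftpc, the defining surfactant protein gene, stood at 12.62 ± 0.13 in AdHIF1a wells and 12.34 ± 0.17 in AdGFP wells (SD, n = 4). Of the measured markers, 3 of 4 endothelial, 2 of 4 lymphocyte, 2 of 6 fibroblast and 1 of 2 airway ones lay below the array median on all arrays, and 0 of these lists' genes were called (limma, 1 lymphocyte marker lower at an unadjusted p under 0.05). The other airway marker, the club cell secretoglobin gene Scgb1a1, was bright, with 12.68 ± 0.18 in AdHIF1a wells and 12.65 ± 0.07 in AdGFP wells (SD, n = 4). Of 9 measured HIF targets, 9 were called higher and 0 lower (median 1.38), against 5.68% and 7.77% of all genes. The rat Hif1a probe set itself was lower (difference -0.48 ± 0.08, limma adjusted p = 0.0217, and 0.0870 to 0.113 without rat 2, 3 or 4), which cannot check the labels, since the sources used here do not say whether it would detect the insert. Across genes, Pearson's r was 0.991 to 0.996 between arrays given 1 virus and 0.977 to 0.986 between the viruses.

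Markers of both alveolar epithelial types moved beside the ligands. Of the 8 type II markers, 3 were called lower and 2 higher, against 7.77% and 5.68% of all genes. Their median difference was -0.59, against -0.64 for the ligands. Napsa, an aspartic protease that processes surfactant proteins, was 2.87-fold lower (difference -1.52 ± 0.18, limma adjusted p = 0.00794), with differences of -1.08, -1.65, -1.26 and -2.09 in rats 1 to 4. Lamp3, a lamellar body protein, fell by 0.78 ± 0.13 (adjusted p = 0.0175), and Lpcat1, an enzyme of surfactant lipid synthesis, by 0.80 ± 0.15 (0.0263). The surfactant protein genes Sftpb and Sftpa1 rose by 0.69 ± 0.11 (0.0168) and 0.89 ± 0.10 (0.00661). Calls were lost for Napsa without rat 2 (0.0509), for Lamp3 and Lpcat1 without rat 2, 3 or 4 (0.0568 to 0.0928 and 0.0762 to 0.119), and for Sftpb without rat 2, 3 or 4 (0.0736 to 0.0895) or without the rat as a block (0.128). The sum of the linear signals of the 8 markers was 15241 to 20553 in the AdHIF1a wells and 15128 to 20675 in the AdGFP wells. Bright markers weigh most in it, such as Sftpc (12.62 in AdHIF1a wells, 12.34 in AdGFP wells). Decreases of dimmer markers, such as Napsa (9.07 and 10.60), therefore show little in the sum.

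Of 8 measured type I markers, which type II cells gain as they flatten in culture, 6 were called lower and 0 higher (limma, 8 lower and 0 higher at an unadjusted p under 0.05). The shares called over all genes were 7.77% lower and 5.68% higher. At an unadjusted p under 0.05, limma gave 2806 of all 18166 genes lower and 2217 higher. Aqp5, Akap5, Pdpn and Ager were among the 6, and Rtkn2 lay below the array median on all arrays. Aqp5 and Pdpn were not called without rat 2 (adjusted p = 0.0607 and 0.0522), nor Ager without rat 2 or 4 (0.0690 and 0.0570). Their summed linear signal was 5587 to 9246 in the AdHIF1a wells and 12618 to 17752 in the AdGFP wells. The median difference of the type I list was -0.81, -1.46, -0.71 and -1.68 in rats 1 to 4, and that of the type II list -0.36, -0.28, -0.37 and -0.86. Beside these, Ereg differed by -0.88, -1.19, -0.92 and -1.55, and Btc by -0.24, -0.64, -0.47 and -0.95. Areg differed by -1.85, -1.26, -1.13 and -1.67, and Hbegf by -1.08, -0.63, -0.29 and -0.81. Ereg, Btc and both lists had their largest decrease in rat 4, and Areg and Hbegf had theirs in rat 1. In these bulk wells fewer cells of a state and less RNA per cell cannot be told apart, and the part of the type I and type II markers in the ligand values was not tested.

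Macrophages also make several of these ligands. Of 10 macrophage markers 1 was called lower and 0 higher, against 7.77% and 5.68% of all genes. The differences of 7 of the 10 lay below 0. At an unadjusted p under 0.05, limma gave 4 of the 10 lower and 1 higher, against 2806 and 2217 of all 18166 genes. The called gene, Adgre1, was dim (3.83 in AdHIF1a wells, 4.37 in AdGFP wells), and its call was lost in 7 of 12 alternatives (adjusted p 0.0146 to 0.161), among them no block and the omission of rat 2, 3 or 4. The mannose receptor gene Mrc1 was lower in 4 of 4 rats (difference -0.82 ± 0.21, adjusted p = 0.0586) and was called in 5 of 13 alternatives (0.0207 to 0.298). Csf1r, the receptor of macrophage colony-stimulating factor, was also lower in 4 of 4 rats (-0.46 ± 0.12, 0.0590) and was called in 3 of 13 (0.0230 to 0.437), and Ptprc, the leukocyte gene of CD45, differed by -0.26 ± 0.10 (0.174). Cd14, Msr1 and Itgam differed by -0.28 ± 0.24, -0.16 ± 0.26 and -0.07 ± 0.19. Cd68, Marco and Lyz2 differed by 0.02 ± 0.24, 0.10 ± 0.17 and 0.30 ± 0.10. Cd68 and Msr1 were each higher in the AdHIF1a wells of 3 of 4 rats. The summed linear signal of the 10 markers was 8759 to 10604 in the AdHIF1a wells and 7439 to 9006 in the AdGFP wells. Lyz2, which type II cells also express, made up 6747 to 8079 of it in the AdHIF1a wells and 5518 to 7231 in the AdGFP wells. Without Lyz2 the sum was 955, 2960, 2012 and 1870 in the AdHIF1a wells of rats 1 to 4, against 1702, 2926, 1882 and 1921 in the AdGFP wells. The median difference of the list was -0.61 in rat 1 and 0.01, -0.13 and -0.11 in rats 2 to 4. With rat 1 left out, the fitted difference of Areg was -1.35 (limma adjusted p = 0.0159) and that of Hbegf -0.58 (0.0655, not called). The part of the macrophage markers in the ligand values was not tested.

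**Figure D5:**
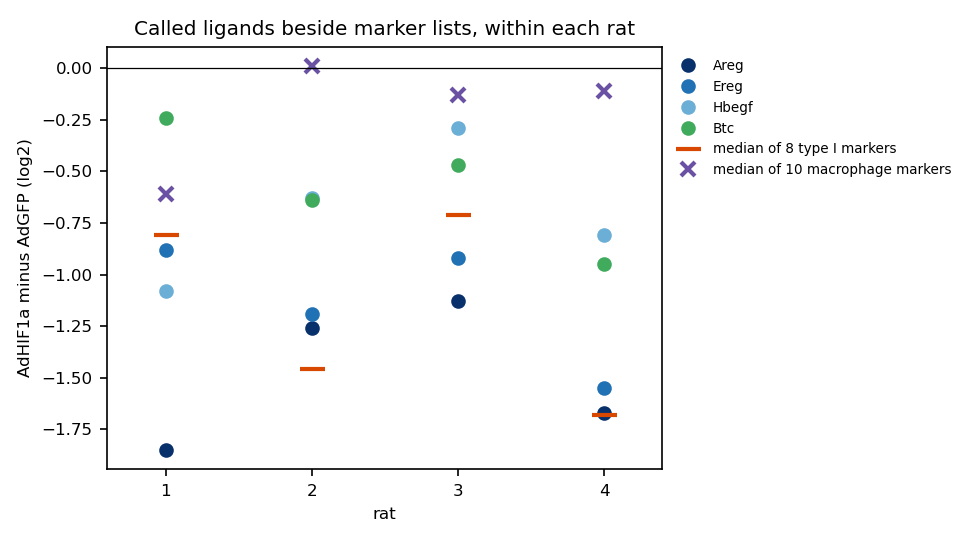
Within-rat difference between AdHIF1a and AdGFP (log2) of the 4 called ligands, with the median difference of 8 type I markers (bars) and of 10 macrophage markers (crosses), for rats 1 to 4. The type I median is lowest in rats 2 and 4, and the macrophage median is -0.61 in rat 1 and between -0.13 and 0.01 in the other 3 rats.

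For each called gene, the 2 genes with the most similar signal over the 8 arrays were found by Pearson's r. The 8 arrays share their rats and fall into the virus groups, so that any gene that differs between the viruses can reach a high r, and the values are a description. Areg was closest to Srgap2 (0.990) and Ikzf2 (0.988), and Ereg to the epithelial transcription factor gene Elf5 (0.993) and Klhl24 (0.990). Hbegf was closest to Pacs2 (0.984) and Phaf1 (0.979), neither of which was itself called (adjusted p = 0.308 and 0.109). Btc was closest to Thnsl1 and Arhgap18 (0.991 each). Erbb3 was closest to Dipk2a and Gpam (0.993 each), and Errfi1 to Zfp395 (0.991) and Irs2 (0.988). Elf5 fell by 1.89 ± 0.21 (adjusted p = 0.00668), to 8.12 in AdHIF1a wells, against 10.02 in AdGFP wells.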

How the data were processed

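Total RNA from 8 wells was hybridised to 8 Affymetrix arrays. The authors deposited log2 signals with 2 decimals for 36685 probe sets, made with Affymetrix Expression Console per the submitters' processing notes. The sources used here do not give its version, its algorithm or the array's build. That the scale is log2 was inferred from the range of 1.42 to 13.57. Array upper quartiles were close, at 7.62 to 7.68, and lower quartiles ran from 3.55 to 3.68. Array medians were 5.02, 5.19, 5.16 and 5.20 in the AdHIF1a wells of rats 1 to 4. In the AdGFP wells they were 5.13, 5.00, 5.07 and 5.04. A general shift of all transcripts would not be seen on such a scale. No further scaling was applied.

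Probe sets with 1 symbol in the platform annotation (18511) were kept, with the highest mean over 8 arrays standing for a gene (18166 genes). limma 3.58.1 in R 4.3.3 (lmFit, eBayes) was fitted to all probe sets with rat as a fixed effect, and two-sided p-values were adjusted by Benjamini-Hochberg over the genes. Wells were paired by rat as the series' design states. Across genes, deviations from the group means correlated at 0.18 to 0.26 within a rat and at -0.22 to 0.08 between rats. The code of the fit was run on simulated data with independent residuals, which does not show how far the calls here rest on single rats. The number of arrays limits the precision.

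The members, gene lists and tests were chosen with earlier results of these data known. Named genes were the 10 members, Hif1a, in each pathway list the 4 called genes with the smallest adjusted p and the gene with the largest difference, and for each called member the 2 genes of highest r. List entries without a measured gene, such as Adam10, were not analysed here. The alternatives were no block, a random block, quantile normalization, median centring, filters at the median and lower quartile, a trended and robust prior, the mean of a gene's probe sets, an adjusted p under 0.01, omission of each rat and, chosen after seeing the data, a spread prior from the 18166 genes alone, without the other probe sets.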

Additional observations from a re-analysis of the deposited data

Results flagged for a closer look

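Erbb2 in the AdGFP well of rat 1 read 8.59, while the AdGFP wells of the other 3 rats lay between 8.75 and 8.77. The gap to the nearest well was 0.889 of the whole range of the group, above the 95% critical value of Dixon's test for 4 samples. Of 20 groups examined (10 genes in each virus), this was the 1 that exceeded it, and chance alone gives about 1 in 20. Rat 1 accordingly had the smallest Erbb2 difference (-0.12, against -0.45, -0.28 and -0.46 in rats 2 to 4).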

How the results depend on the processing

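The counts depended on which rats were included. Leaving out each rat in turn gave 315 to 775 genes higher and 246 to 1231 lower over all genes, against 1032 and 1411 with all 4 rats, and 0 to 1 of the 10 family genes higher and 1 to 3 lower, against 2 and 4 (at an unadjusted p under 0.05, limma gave 2 higher and 4 to 5 lower in each of these fits). Fewer rats leave fewer residual degrees of freedom. Centring each array on its median gave 635 genes higher and 1 family gene higher, an adjusted p under 0.01 gave 349 higher and 307 lower (0 and 2 family genes, Areg and Ereg being the lower), and the spread prior from the 18166 genes alone gave 1576 higher and 2098 lower. Without the replicate block, 1279 genes were higher and 1672 lower, and 2 and 5 family genes, the fifth being Erbb2. Centring subtracts the array median, which was higher in the AdHIF1a well than in the AdGFP well of rats 2, 3 and 4, and lower in rat 1. It moved the ligand median from -0.64 to -0.72 and the receptor median from -0.13 to -0.21. Why the array medians differed was not tested. In the other planned settings the counts stayed within 1.5 times. The ligand median ran from -0.73 to -0.56 and the receptor median from -0.21 to -0.03, and no called family gene changed sign in any setting. Egf was not tested under the filter at the median, which it did not pass. Egf and the dim Epgn, Erbb4, Nrg3 and Nrg4 are limited by signal below the array median on all 8 arrays. Egf lay below the lower quartile on 0 arrays.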
